A study of Mus musculus with 8 samples.

Results

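Mouse Th17 cells given a vector that expresses miR-96 were compared with Th17 cells given a control vector, with 2 libraries in each group. A gene entered the comparison when it had a symbol and at least 10 estimated counts in 2 or more of these 4 libraries, which kept 11671 of 24426 genes (47.8%). Both groups were on the C57BL/6J background, were transduced, were grown under the culture condition that the labels call Th17(23), were collected on day 4 to 5 and were sorted for GFP per the protocols. No deletion is labelled for either vector group. The series also holds 2 libraries of miR-183C+/+ (wild type) and 2 of miR-183C-/- (knockout) Th17 cells, labelled as not transduced although the protocol gives GFP sorting for all groups, where miR-183C is the cluster of miR-183, miR-96 and miR-182. The promoter of the vector, the sex and age of the mice and the number of animals behind a library are not given in the sources used here. The labels do not say whether duplicates were separate cultures or animals. The p-values therefore measure only how much these samples scatter, and that scatter may be technical.

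A microRNA guides the silencing complex to messenger RNAs mainly by pairing of its seed, bases 2 to 8, with the 3′ UTR, and paired transcripts are translated less or degraded. The cluster is best known from hair cells and photoreceptors of the ear and eye. Th17 cells are CD4 T cells that make IL-17, and IL-23 and IL-1 push them toward the inflammatory state seen in autoimmune disease. Foxo1, a transcription factor that keeps T cells quiescent, is a reported target of the cluster. The mature sequences are shown because they define the search for sites below. They come from RefSeq on GRCm38.p6, with the seed in capitals. All are encoded on the minus strand of chromosome 6, miR-96 at chr6:30169506-30169528, miR-182 at chr6:30165962-30165986 and miR-183 at chr6:30169711-30169732.
miR-96: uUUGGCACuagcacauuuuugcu
miR-182: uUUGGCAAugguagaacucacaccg
miR-183: uAUGGCACugguagaauucacu
The seeds of miR-96 and miR-182 share bases 2 to 7 and differ at base 8, whereas miR-183 has another base at position 2.

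A full site for miR-96 is the 8-base run GTGCCAAA in a 3′ UTR. The Foxo1 site and those of 5 genes with lower levels in the miR-96 libraries are shown as examples of what was searched for, and the latter were chosen for their lower levels. Each run is 30 bases of the UTR on GRCm38, read on the strand of the gene, with the site in capitals.
Foxo1 (chr3:52347227-52347256, plus): atcattacaatgaaGTGCCAAActcactac
Gpm6b (chrX:166385844-166385873, plus): gggaaagagaacgaGTGCCAAAggaggaaa
B4galnt1 (chr10:127172106-127172135, plus): ggttcactttccaaGTGCCAAAgagcccag
Morf4l2 (chrX:136733252-136733281, minus): tgccctggttcctaGTGCCAAAggttcaac
Fadd (chr7:144580436-144580465, minus): gccttttgtgcccaGTGCCAAAaagacctt
Ube2c (chr2:164778370-164778399, plus): ggtgcccatccccaGTGCCAAAgggacaca

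The libraries held 12452659 and 10237707 estimated counts in the control vector group and 10803163 and 7863469 in the miR-96 group. Of the 11671 genes, 10831 had 10 counts in all 4 libraries, 73 had them in both miR-96 libraries and neither control, and 57 the reverse. Genes of the last 2 kinds could enter only through the group where they were high, and 8 of the 13 called genes below are among them. The second-highest count was exactly 10 for 109 genes just inside the threshold and 9 for 121 just outside. Levels below are CPM, the estimated counts divided by TMM-scaled library sizes.

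The cells carried their T cell label in both groups. The 7 T cell markers summed to 2932 and 2651 CPM in the control libraries and to 2998 and 2783 CPM in the miR-96 libraries. Markers of B or plasma cells summed to 28.7 and 17.5 CPM against 78.7 and 91.8 CPM. Markers of CD8 T or NK cells summed to 11.2 and 16.7 CPM against 38.8 and 45.8 CPM, while those of myeloid cells overlapped, at 19.8 and 7.35 against 17.2 and 26.6 CPM. Summed levels were 0.784 and 0.387 against 1.92 and 1.62 CPM for gamma delta T cells, 0.706 and 0.677 against 1.47 and 5.85 CPM for mast cells or basophils, and at most 0.387 CPM in these 4 libraries for erythroid cells. The innate lymphoid list, whose genes T cells also express, summed to 499 and 384 against 648 and 692 CPM. In bulk RNA, more cells of a type and more RNA per cell cannot be told apart.

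The added microRNA was barely counted in polyadenylated RNA. The Mir96 entry had 0 and 0 counts in the control libraries and 7 and 2 counts in the miR-96 libraries. With the control group set to a floor of 3 counts that is 3.65-fold higher, leaving out the counting error of the miR-96 counts. Mir182 and Mir183 had no count in any of the 8 libraries. Mature microRNA is not captured by this assay, so these counts do not measure how much miR-96 the cells held.

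Across the whole transcriptome, 13 genes rose with the miR-96 vector at an adjusted p under 0.05 (0.110% of the 11851 genes tested) by the quasi-likelihood F test of edgeR with Benjamini-Hochberg adjustment. No gene fell by that rule, but 474 genes were lower at an unadjusted p under 0.05 (4.00%), against 557 higher (4.70%) and 1031 in all (8.70%), and DESeq2 called 80 genes higher and 35 lower. The quartiles of the log2 fold change over all genes were -0.18 and 0.21, and the median was 0.01. In 18.3% of genes both miR-96 libraries lay above both controls and in 17.6% below, 35.9% together. The 13 calls needed both control libraries. Without control library 1 no gene was called, although 1254 passed an unadjusted p of 0.05, and without control library 2 Gbp2b alone was. The fold changes stayed large, and without control library 1 the log2 fold change was 6.90 for Gbp2b (adjusted p = 0.0517) and 3.47 for St6galnac2 (adjusted p = 0.119).

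**Figure D1:**
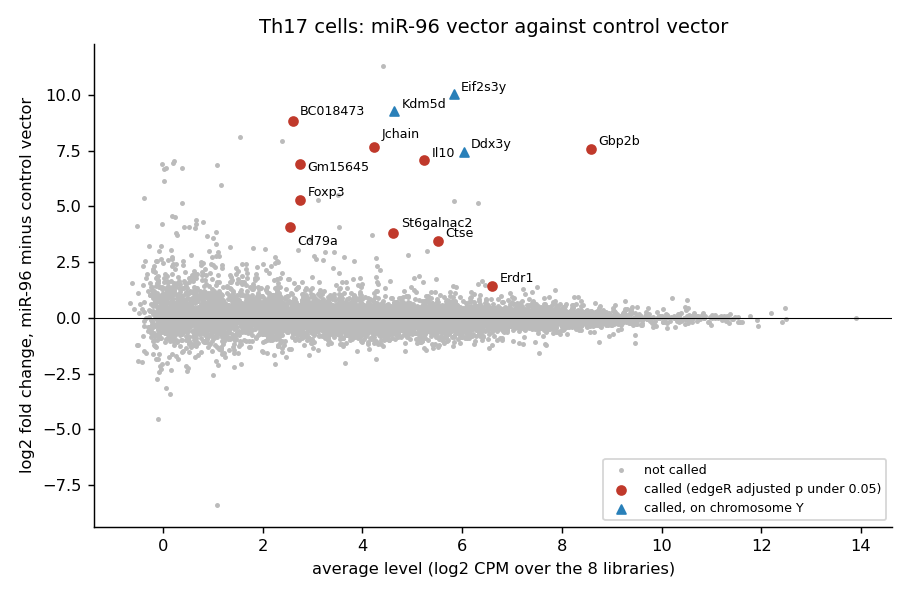
Average level of each tested gene over the 8 libraries (log2 CPM, horizontal) against its log2 fold change, miR-96 minus control vector (vertical). The 13 called genes, 3 of them on chromosome Y, all lie above 0, and most genes lie close to it.

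Il10 and Foxp3 were the called genes of T cell regulation. Il10 encodes an anti-inflammatory cytokine that restrained Th17 cells also make. Its level was 0.0784 and 0.773 CPM in the control libraries and 50.3 and 58.7 CPM in the miR-96 libraries (chromosome 1, 131019845 to 131024974 on GRCm38, as for the positions below). Il10 rose by 7.06 on the log2 scale (SE 0.73, adjusted p = 0.0101), from 9 counts over the control group to 1021. The rise was 6.09 without control library 1 and 9.23 without control library 2. Foxp3, the master regulator of regulatory T cells (chromosome X, 7573644 to 7595245), stood at 0.157 and 0.290 CPM against 10.4 and 7.59 CPM, a rise of 5.29 (SE 0.72, adjusted p = 0.0459). The Foxp3 call was lost in 8 alternatives, with an adjusted p of up to 0.242, while its log2 fold change stayed between 4.86 and 5.74. Neither gene overlapped between the groups. Wild type cells, labelled as not transduced, had 54.0 and 134 CPM of Il10 and 10.6 and 22.8 CPM of Foxp3. In the knockout, Il10 was at 0.676 and 2.26 CPM and Foxp3 at 0.406 and 0 CPM. The control vector libraries were thus the low group for both genes among the cells with an intact cluster.

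Cd79a and Jchain, transcripts of B and plasma cells, were called as well. Cd79a encodes a signalling chain of the B cell receptor (chromosome 7, 24897381 to 24902197) and had 0.471 and 0.387 CPM in controls against 7.24 and 7.71 CPM, a rise of 4.07 (SE 0.47, adjusted p = 0.0149). Jchain, the joining chain of secreted antibodies (chromosome 5, 88519809 to 88527891), had 3 counts over both control libraries and 545 over both miR-96 libraries. That is a count ratio of 221, with a 95% interval of 75.3 to 1076 that covers counting error only (adjusted p = 0.00829). Mzb1, a chaperone of antibody-secreting cells, missed the threshold at 0.471 and 0.193 against 14.4 and 18.5 CPM (adjusted p = 0.0772). Of the 8 B or plasma cell markers in the table, 7 were tested, 2 were called and 6 lay wholly above the controls, as 18.3% of all genes did. Cd79a, Jchain and Mzb1 had under 10 counts in each control library. They met the entry rule only through the miR-96 libraries, so their place above the controls is a description and no test. Whether B-lineage cells account for the other differences was not tested.

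Gbp2b had the smallest p of all genes. It encodes an interferon-induced guanylate-binding protein, a GTPase that attacks intracellular pathogens (chromosome 3, 142594847 to 142619179). Its level was 0.784 and 2.42 CPM in the control libraries against 278 and 315 CPM, a rise of 7.58 (SE 0.57, adjusted p = 0.00413), or 8.55 without control library 2. Wild type cells had 277 and 692 CPM and the knockout 821 and 703 CPM, so the 2 control vector libraries were the only low ones of the 8. Guanylate-binding protein genes are close paralogs, and how the authors' counting treated reads shared between them is not given, so the split between them is uncertain. Gbp2, which starts beside it at 142620602, had 666 and 687 CPM in controls against 456 and 370 CPM.

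The remaining called genes, apart from the Y-linked ones below, showed the same order of groups. St6galnac2, a sialyltransferase, had 1.02 and 1.64 CPM against 16.9 and 20.4 CPM, a rise of 3.82 (SE 0.40, adjusted p = 0.0101). Its neighbour on chromosome 11, BC018473, annotated as an antisense transcript, was at 0 in both control libraries and at 5.68 and 6.34 CPM with miR-96 (adjusted p = 0.0464). With the control group set to the floor of 3 counts that is 45.9-fold higher, leaving out the counting error of the miR-96 counts. St6galnac1, the next gene, was also at 0 in both controls, against 2.38 and 3.98 CPM (adjusted p = 0.0891). The genes span 116675303 to 116694868, 116752167 to 116759373 and 116765025 to 116775507. Whether counting used strand is not given, so reads of BC018473 and of a gene on the opposite strand cannot be told apart.

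Ctse, an aspartic protease of the endosome (chromosome 1, 131638306 to 131675505), had 2.20 and 2.90 CPM against 26.5 and 29.7 CPM, a rise of 3.47 (SE 0.39, adjusted p = 0.0149). Gm15645, annotated as a processed pseudogene on chromosome 7 and so uncertain in its reads, had 1 count over the controls and 128 with miR-96 (count ratio 156, 95% interval 27.5 to 6204, adjusted p = 0.0149). Erdr1 was given no chromosome here, so it is not counted as autosomal. It had 346 and 326 counts in the controls. Its level was 27.1 and 31.5 CPM against 84.1 and 75.1 CPM, a rise of 1.44 (SE 0.15, adjusted p = 0.0101). All these genes were also present in wild type and knockout libraries. St6galnac2 had 23.0 to 45.9 CPM in those 4 libraries, Ctse 25.3 to 123 CPM, BC018473 4.26 to 12.8 CPM and Gm15645 5.24 to 12.7 CPM.

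The Y-linked genes separated the groups in the same way. Eif2s3y, a translation factor subunit (chromosome Y, 1010543 to 1028847), was at 0 and 0.0967 CPM in controls and at 38.4 and 79.7 CPM with miR-96 (adjusted p = 0.0100). Ddx3y, an RNA helicase, was at 0.941 and 0 CPM against 45.5 and 140 CPM (adjusted p = 0.0204), and Kdm5d, a histone demethylase, at 0.0784 and 0 against 15.8 and 54.2 CPM (adjusted p = 0.0149). Xist, which is made from the inactive X of female cells, had 1220 and 1480 CPM in controls, 1082 CPM in miR-96 library 1 and 166 CPM in miR-96 library 2. The miR-96 libraries thus held both Y-linked transcripts and Xist, and the controls held almost no Y-linked transcript. Eif2s3y had 36.1 and 97.0 CPM in wild type and 106 and 97.7 CPM in the knockout, and Kdm5d had 16.1 to 40.3 CPM in those libraries. The control vector group was thus the only one in the series almost without the Y-linked genes named here. The sex of the cells behind each library and the vector cannot be told apart in these groups. With Y-linked genes and Xist left out, 8 genes were called, and BC018473 and Foxp3 no longer were.

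**Figure D2:**
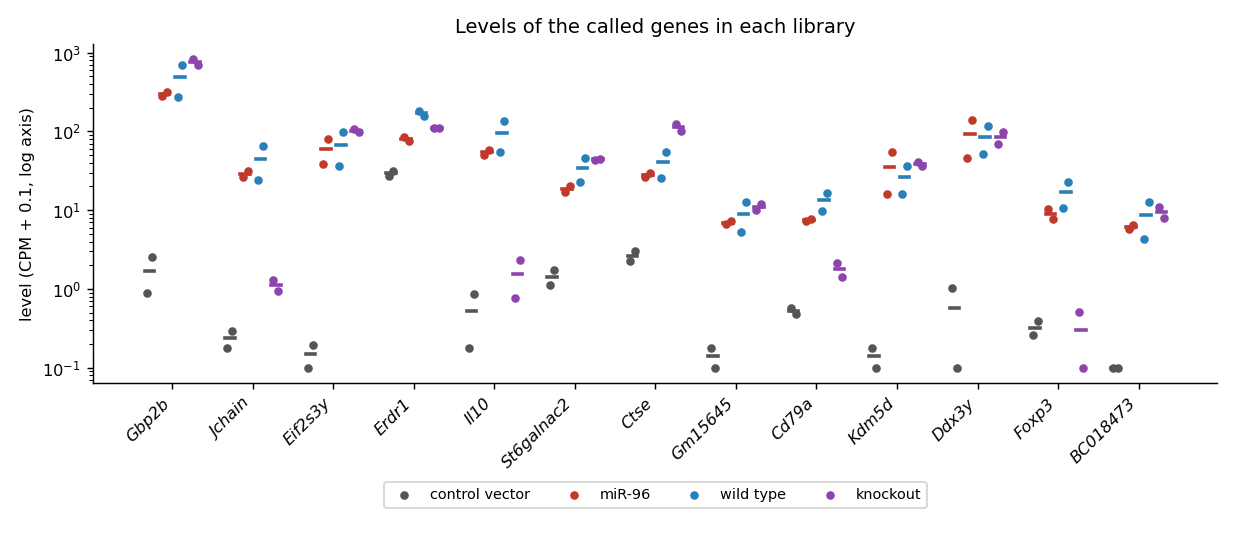
Level of each called gene in each library (CPM plus 0.1, log axis), by group, with a short bar at the group mean. The 2 control vector libraries are low for each gene, and Il10, Jchain, Cd79a and Foxp3 are low in the knockout as well.

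Part of the Th17 program was higher with the miR-96 vector, and of its genes only Il10 passed adjustment in the edgeR test. Of the 11 Th17 cytokines and effectors tested, 6 were higher at an unadjusted p under 0.05, against 4.70% of all genes, and none lower. Their median log2 fold change was 0.64 against 0.01 over all genes. Il17a, the signature cytokine, had 122 and 90.9 CPM in controls against 190 and 330 CPM, and Il17f, its close relative, had 234 and 129 CPM against 336 and 525 CPM. The log2 fold changes were 1.28 (SE 0.33) for Il17a and 1.25 (SE 0.33) for Il17f, each with an adjusted p of 0.373. Both miR-96 libraries lay above both controls, with library 2 the higher. The wild type libraries had 165 and 261 CPM of Il17a and 211 and 327 CPM of Il17f.

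Il22, a cytokine that acts on epithelium, had 2.67 and 0.967 CPM in controls and 7.70 and 56.7 CPM with miR-96, so that most of its difference lay in miR-96 library 2. Csf2, which encodes the inflammatory cytokine GM-CSF, had 7.14 and 10.7 CPM against 17.4 and 46.3 CPM (log2 fold change 1.83, SE 0.68, adjusted p = 0.524). Il21, which sustains Th17 cells, overlapped between the groups at 602 and 907 against 798 and 787 CPM. The marker list of Th17 cells summed to 572 and 346 CPM in controls and 859 and 1184 CPM with miR-96. All 7 of its genes lay above both controls, against 18.3% of all genes.

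The transcription factors of the lineage were higher in part. Of 15 tested, 5 were higher at an unadjusted p under 0.05, against 4.70% of all genes, none lower, and the median was 0.40. Maf, which drives Il10 and Il21, had 126 and 99.1 CPM against 211 and 296 CPM (log2 fold change 1.17, SE 0.24, adjusted p = 0.272). Rora, a nuclear receptor of the lineage, had 64.2 and 29.4 CPM against 129 and 132 CPM (1.47, SE 0.39, adjusted p = 0.373). Nfkbiz, an IκB-like cofactor induced by IL-1 and IL-17, had 57.7 and 45.1 CPM against 68.3 and 148 CPM. Without miR-96 library 2, 2 of the 15 passed the unadjusted threshold in place of 5.

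Within the list of receptors and signalling genes for IL-1, IL-6 and IL-23, Il1r1 had the smallest p. It encodes the signalling receptor of IL-1, which Th17 cells need for their inflammatory function (chromosome 1, 40225080 to 40317257). Its level was 13.7 and 10.1 CPM in controls against 31.6 and 44.8 CPM, a log2 fold change of 1.67 (SE 0.33, adjusted p = 0.199). Il1r2, the decoy receptor, had 24.7 and 21.3 CPM against 33.5 and 76.4 CPM (1.25, SE 0.39, adjusted p = 0.442). Il23r had 34.7 and 19.9 CPM against 50.4 and 41.9 CPM. The median log2 fold change of the list was 0.33. Of its 20 genes, 5 were higher at an unadjusted p under 0.05, against 4.70% of all genes, and none lower. Without control library 2 or miR-96 library 2, 3 of them were, and without miR-96 library 1, 8.

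**Figure D3:**
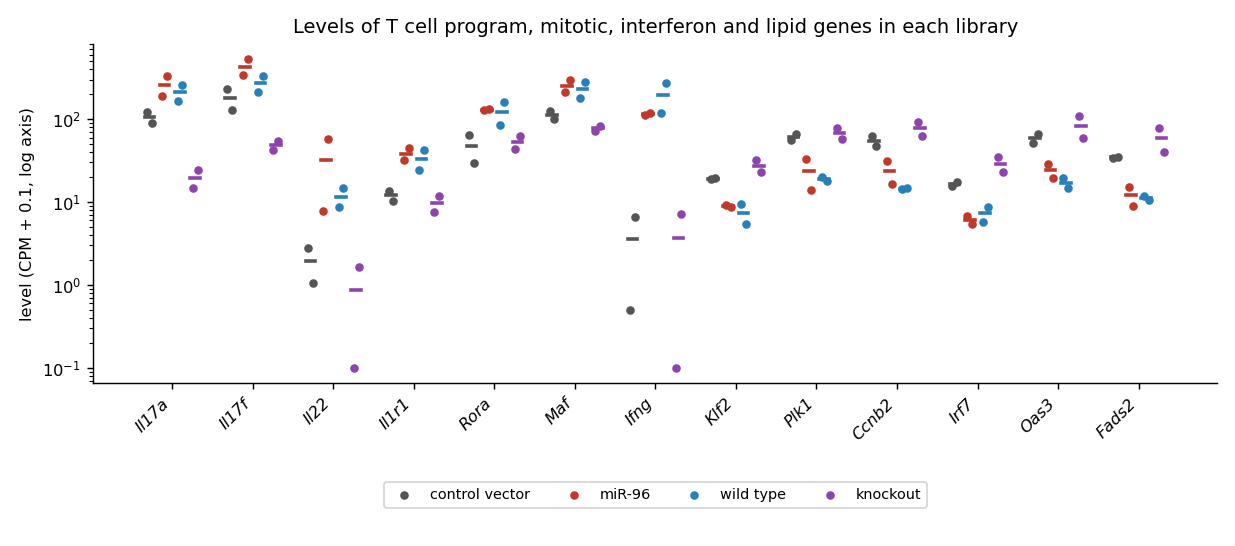
Levels in each library (CPM plus 0.1, log axis) of Th17 cytokines and factors, Ifng, Klf2, mitotic genes, interferon-stimulated genes and Fads2, by group, with a short bar at the group mean. Il17a to Ifng are higher with miR-96 than with the control vector, and Klf2 to Fads2 are lower.

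Of 14 Th1 genes tested, 8 were higher at an unadjusted p under 0.05, against 4.70% of all genes, and none lower. Their median log2 fold change was 0.57. No Th1 gene passed adjustment (edgeR), and 1 lay wholly below the controls. Ifng, the defining Th1 cytokine, had 0.392 and 6.48 CPM in controls and 112 and 120 CPM with miR-96, a log2 fold change of 5.15 (SE 1.02, adjusted p = 0.199). That value was 4.13 without control library 1 and 8.17 without control library 2. The wild type libraries had 119 and 273 CPM of Ifng and the knockout libraries 0 and 7.15 CPM. Tbx21, the Th1 master factor, had 23.3 and 29.0 CPM against 54.4 and 51.5 CPM (1.02, SE 0.29, adjusted p = 0.387). Hlx, a partner of that factor, had 4.00 and 3.19 CPM against 7.51 and 11.7 CPM. The count of 8 became 5 without miR-96 library 2.

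Cytotoxic granule genes were higher in 7 of 11 tested at the unadjusted threshold, against 4.70% of all genes, with a median of 0.94. Gzma, a granzyme, had 0.157 and 0.483 CPM against 11.6 and 13.2 CPM (log2 fold change 5.28, SE 0.81, adjusted p = 0.0772). Prf1, the pore-forming perforin, had 2.43 and 0.967 CPM against 9.99 and 14.3 CPM (2.80, SE 0.52, adjusted p = 0.172). Gzmb, the granzyme of activated CD4 T cells, overlapped at 195 and 568 against 319 and 387 CPM. Both Gzma and Prf1 belong to the CD8 T or NK marker list, of which 3 of 6 tested genes lay above both controls, against 18.3% of all genes. Of that list, Gzma and Cd8a had under 10 counts in each control library and met the entry rule only through the miR-96 libraries. Whether CD8 T or NK cells account for the granule genes was not tested.

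Th2 genes showed no common direction, with 2 of 11 higher at the unadjusted threshold and a median of -0.06. For this and the next 2 lists, the shares of all genes at that threshold were 4.70% higher and 4.00% lower. Il13 had 1.10 and 10.8 CPM against 24.6 and 27.4 CPM, whereas Il4 overlapped at 3.14 and 15.5 against 9.89 and 7.34 CPM. Of 15 regulatory T cell genes, 5 were higher and 1 lower, with a median of 0.30, and 3 were higher without control library 1 or miR-96 library 2. Ikzf2, which encodes Helios, a factor of regulatory T cells, had 2.75 and 5.22 CPM against 24.9 and 26.5 CPM (log2 fold change 2.70, SE 0.44, adjusted p = 0.0891). Of 10 follicular helper genes, 3 were higher and 2 lower, with a median of 0.02. Cxcr5, the receptor that leads T cells to B cell follicles, had 1.73 and 0.677 CPM against 6.05 and 8.58 CPM, and Slamf6, an adhesion receptor of the T and B cell contact, went the other way from 33.2 and 42.5 to 20.7 and 16 CPM (log2 fold change -1.04, SE 0.22, adjusted p = 0.291).

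Inhibitory receptors and ectonucleotidases were higher in 4 of 14, none lower, with a median of 0.22, and in 2 without miR-96 library 2. The share of all genes higher at the unadjusted threshold was 4.70%. Lag3 had 42.3 and 48.8 CPM against 62.5 and 125 CPM (log2 fold change 1.04, SE 0.30, adjusted p = 0.387), and Entpd1, which encodes the ATP-degrading enzyme CD39, had 1.65 and 0.677 CPM against 4.67 and 7.96 CPM. Prdm1, which encodes the repressor Blimp-1 of effector T and plasma cells, had 1.18 and 2.71 CPM against 13.3 and 16.2 CPM (2.94, SE 0.51, adjusted p = 0.128).

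No chemokine gene passed adjustment (edgeR). Of 11 ligands tested, 7 lay above both controls and 1 below, 3 were higher at the unadjusted threshold, and the median log2 fold change was 0.95. Over all genes, 18.3% lay above both controls and 17.6% below, and 4.70% were higher at that threshold. Ccl22, which attracts regulatory and Th2 cells, had 0.941 and 2.80 CPM against 23.7 and 24.4 CPM (3.72, SE 0.80, adjusted p = 0.291). Of 16 receptors and homing genes, 6 were higher and 2 lower at that threshold, and the median was 0.18. Cxcr6, a receptor of tissue-resident T cells, had 2.98 and 2.42 CPM against 18.2 and 17.4 CPM (2.71, SE 0.45, adjusted p = 0.0891), and Ccr2, which guides inflammatory cells, had 31.2 and 26.7 CPM against 56.6 and 72.4 CPM (1.15, SE 0.23, adjusted p = 0.199).

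Foxo1 activates genes of quiescence and homing in T cells, and the 19 tested genes of that list showed no common direction. Klf2, a transcription factor of quiescent and recirculating T cells, had 18.9 and 19.2 CPM against 9.07 and 8.71 CPM (log2 fold change -1.10, SE 0.28, adjusted p = 0.373). Il7r, Ccr7 and S1pr1, which Foxo1 also activates, were not lower at the unadjusted threshold. Il7r, the receptor of the survival cytokine IL-7, had 161 and 112 CPM against 193 and 305 CPM (0.87, SE 0.24, adjusted p = 0.386). Ccr7, a lymph node homing receptor, overlapped at 347 and 265 against 304 and 354 CPM, as did S1pr1, the exit receptor, at 56.4 and 31.0 against 51.3 and 30.5 CPM. The median of the list was 0.08, and 11 of its 19 genes had a positive log2 fold change. In all, 3 genes of the list were higher and 2 lower at the unadjusted threshold, against 4.70% and 4.00% of all genes. Without miR-96 library 2, 1 was higher.

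Mitotic genes were on the lower side throughout, with none past adjustment in the edgeR test. All 26 mitosis and spindle genes were tested, and all 26 had both miR-96 libraries below both controls, against 17.6% of all genes. Of them, 23 were lower at an unadjusted p under 0.05, against 4.00% of all genes, and the median log2 fold change was -0.88. Summed over the list, levels were 3116 and 3712 CPM in controls and 2549 and 1210 CPM with miR-96. They were 1777 and 1738 CPM in wild type and 4467 and 3358 CPM in the knockout. Among the cells with an intact cluster, the control vector libraries were thus the high group for this list. Plk1, a kinase that drives mitotic entry, had 56.1 and 66.0 CPM in controls against 33.2 and 13.7 CPM (-1.37, SE 0.35, adjusted p = 0.367). Ccnb2, a mitotic cyclin, had 63.2 and 46.8 CPM against 30.9 and 16.3 CPM (-1.21, SE 0.31, adjusted p = 0.370), and Aurka, a spindle kinase, had 44.1 and 45 CPM against 27.4 and 13.1 CPM (-1.13, SE 0.31, adjusted p = 0.386). In each, miR-96 library 2 was the lowest of the 4 libraries of the contrast. Without that library 12 genes passed the unadjusted threshold, and without control library 2, 13 did.

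The S phase genes depended on those libraries altogether. Of 26 replication genes, 14 lay below both controls and 10 were lower at the unadjusted threshold, with a median of -0.54. Over all genes these shares were 17.6% and 4.00%. Rrm1, a subunit of ribonucleotide reductase, had 242 and 337 CPM against 221 and 133 CPM (-0.71, SE 0.24, adjusted p = 0.475), and Mcm7, of the replicative helicase, had 230 and 323 CPM against 212 and 145 CPM. The count of 10 became 0 without control library 2 and 0 without miR-96 library 2, and it became 23 without control library 1 and 24 without miR-96 library 1. Of 19 G1 cyclins and CDK inhibitors, 5 were lower and 1 higher, with a median of -0.25, and the count of 5 became 2 without control library 2 and 1 without miR-96 library 2. E2f2, an activator of S phase genes, had 101 and 95.4 CPM against 81.0 and 48.6 CPM, and Rbl2, a retinoblastoma-family repressor of the cell cycle, had 64.8 and 57.4 CPM against 109 and 152 CPM (1.10, SE 0.27, adjusted p = 0.354). Of 12 replication-dependent histone genes, 3 were lower, with a median of -0.85, at levels of a few CPM, and the count was 0 to 6 with single libraries left out.

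Of 21 type I interferon-stimulated genes, 7 were lower at the unadjusted threshold, against 4.00% of all genes, and none higher. The median was -0.59. In this list 10 genes lay below both controls and 1 above, against 17.6% and 18.3% of all genes. The summed levels of the list overlapped, at 975 and 1346 CPM in controls against 1246 and 1155 CPM with miR-96. Irf7, the factor that amplifies the interferon response, had 15.7 and 17.4 CPM in controls against 6.60 and 5.35 CPM (-1.46, SE 0.30, adjusted p = 0.264). Oas3, a sensor of double-stranded RNA, had 51.6 and 66.0 CPM against 28.4 and 19.4 CPM (-1.29, SE 0.31, adjusted p = 0.345), and Ifit1, which binds viral RNA, had 4.94 and 7.15 CPM against 1.74 and 1.87 CPM. Outside the list, Ifi27l2a, an interferon-induced gene, had 184 and 249 CPM against 87.0 and 59.9 CPM (-1.55, SE 0.26, adjusted p = 0.0891). Dhx58, the RNA sensor LGP2, had 24.8 and 23.4 CPM against 10.3 and 11.9 CPM (-1.12, SE 0.20, adjusted p = 0.152). Epsti1, another interferon-induced gene, had 58.1 and 56.8 CPM against 31.5 and 38.8 CPM. No library of the miR-96 group overlapped the controls in these genes. The wild type libraries also lay below both controls in each of them, with 5.61 and 8.72 CPM of Irf7 and 7.68 and 7.33 CPM of Dhx58. Without control library 2, 3 members of the list were lower at that threshold, and without control library 1, 11 were.

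Of 18 interferon-inducible GTPases tested, 13 lay above both controls and 1 below, against 18.3% and 17.6% of all genes. At the unadjusted threshold 8 were higher and 1 lower, against 4.70% and 4.00% of all genes, and the median was 0.69. Gbp2b, described above, was called, and Gbp7 had 21.7 and 32.3 CPM against 56.8 and 49.7 CPM (log2 fold change 0.98, SE 0.28, adjusted p = 0.387). Gbp2 was the lower member (-0.71, SE 0.15, adjusted p = 0.291). Irf8, a transcription factor downstream of interferon-γ, had 30.9 and 24.7 CPM against 61.4 and 85.8 CPM (1.40, SE 0.27, adjusted p = 0.199). The count of 8 became 3 without control library 1, 5 without miR-96 library 2 and 15 without control library 2. Of 9 MHC class II genes, 2 were higher, with a median of 0.30, and of 15 MHC class I and immunoproteasome genes 1 was, with a median of 0.03. H2-Aa, a class II chain that mouse T cells make little of, had 1.10 and 0.773 CPM against 7.70 and 7.96 CPM (3.03, SE 0.50, adjusted p = 0.0891).

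Over all genes, 17.6% lay below both controls and 18.3% above, and 4.00% were lower at the unadjusted threshold. Of 22 cholesterol genes, 14 lay below both controls and 1 above. At that threshold 6 were lower and 1 higher, and the median was -0.33. Fdps, which makes the isoprenoid precursor of cholesterol, had 267 and 224 CPM against 170 and 114 CPM (-0.79, SE 0.23, adjusted p = 0.387), and Cyp51, a sterol demethylase, had 226 and 208 CPM against 166 and 122 CPM. Without control library 1, 3 cholesterol genes were lower, and without miR-96 library 2, 2 were. Abca1, a cholesterol exporter, was the higher member at 7.22 and 5.80 against 11.6 and 13.3 CPM. Summed over the cholesterol list, levels were 3067 and 2653 CPM in controls and 2332 and 2011 CPM with miR-96. They were 1941 and 2065 CPM in wild type and 4267 and 3141 CPM in the knockout. Of 15 fatty acid genes, 7 lay below both controls, 2 were lower at the unadjusted threshold, and the median was -0.22. Fads2, a desaturase, had 33.9 and 35.0 CPM against 15.1 and 8.95 CPM (-1.50, SE 0.34, adjusted p = 0.322). Wild type cells had 11.6 and 10.5 CPM of Fads2. Of 29 oxidative phosphorylation subunits, 13 lay below both controls, with a median of -0.16, and none passed the unadjusted threshold.

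**Figure D4:**
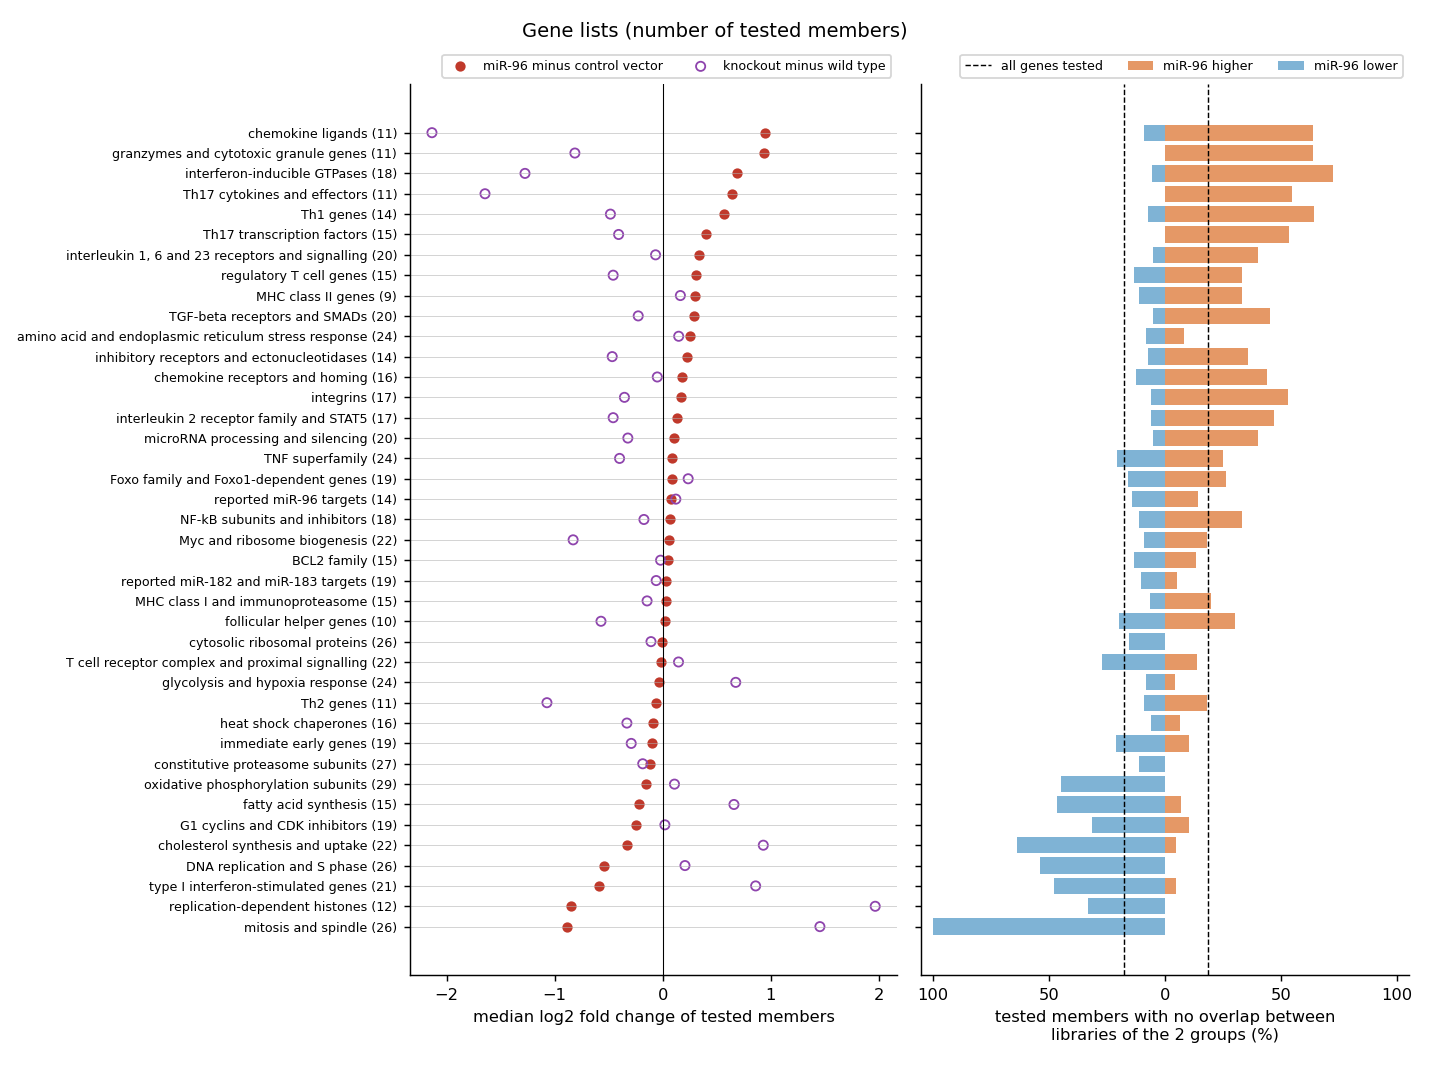
Left, the median log2 fold change of the tested genes of each list, for miR-96 minus control vector (filled) and knockout minus wild type (open). Right, the percentage of each list with both miR-96 libraries above (right bars) or below (left bars) both controls, with dashed lines at the 18.3% and 17.6% of all genes. Mitosis reaches all 26 of its genes on the lower side.

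Other signalling lists varied in the share of members that were higher. Over all genes, 4.70% were higher and 4.00% lower at the unadjusted threshold, and 18.3% lay above both controls and 17.6% below. The TNF superfamily list had 6 genes above both controls and 5 below, and the T cell receptor list had 3 above and 6 below. Of 20 TGF-β receptor and SMAD genes, 5 were higher and 1 lower at the unadjusted threshold, with a median of 0.28. Skil, a repressor of SMAD proteins, had 110 and 104 CPM against 164 and 175 CPM (0.67, SE 0.16, adjusted p = 0.345). Without miR-96 library 1, 8 genes of that list were higher, and without miR-96 library 2, 3 were. Of 17 genes of the IL-2 receptor family and STAT5, 6 were higher and 1 lower, with a median of 0.13, and 2 were higher without control library 1 or miR-96 library 2. Of 17 integrins, 3 were higher, with a median of 0.17, among them Itga4, a subunit that lets T cells enter the brain, at 31.6 and 24.6 against 61.1 and 44.3 CPM (0.91, SE 0.20, adjusted p = 0.330). Of 24 TNF superfamily genes, 3 were higher (median 0.09), and of 18 NF-κB genes 1 was (median 0.07). Without miR-96 library 2 these counts were 1 and 0, and without control library 2 the NF-κB count was 3. Among 22 genes of the T cell receptor complex and its proximal signalling, 3 were higher, with a median of -0.01, and 1 was without control library 1 or miR-96 library 2.

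Immediate early genes were lower in 3 of 19, none higher, with a median of -0.10. At the unadjusted threshold 4.00% of all genes were lower and 4.70% higher. Fos, an AP-1 subunit induced within minutes of stimulation, had 22.7 and 19.8 CPM against 9.99 and 11.7 CPM (-0.98, SE 0.29, adjusted p = 0.399). In the amino acid and endoplasmic reticulum stress list 2 of 24 were higher, with a median of 0.25, and the count was 0 without control library 1 or miR-96 library 2 and 9 without miR-96 library 1. No gene passed the unadjusted threshold among 24 glycolysis and hypoxia genes (median -0.03), 16 heat shock chaperones (-0.09), 22 Myc and ribosome biogenesis genes (0.06), 26 cytosolic ribosomal proteins (-0.01), 27 proteasome subunits (-0.11) or 15 BCL2 family genes (0.05).

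Of 20 genes of the microRNA machinery, 4 were higher and 1 lower at the unadjusted threshold, against 4.70% and 4.00% of all genes. The median was 0.10. Ago2, the slicing Argonaute that carries microRNAs, had 247 and 233 CPM against 316 and 382 CPM (0.54, SE 0.14, adjusted p = 0.380), and Tnrc6b, its silencing partner, had 81.4 and 83.6 CPM against 102 and 119 CPM (0.42, SE 0.14, adjusted p = 0.464). Without control library 1 or miR-96 library 2, 1 gene of the list was higher, a share near that of all genes.

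Reported targets showed no common direction. Foxo1, whose site is printed above at base 260 of a 3′ UTR of 6240 bases, had 118 and 145 CPM in controls and 158 and 163 CPM with miR-96 (chromosome 3, 52268336 to 52353221). The log2 fold change of Foxo1 was 0.29 (SE 0.16, adjusted p = 0.640), with both miR-96 libraries above both controls. Messenger RNA levels do not show how much protein was made. Of 14 tested genes on the list of reported miR-96 targets, 1 was higher and 1 lower, with a median of 0.07, and of 19 on the list for miR-182 and miR-183 none passed the unadjusted threshold, with a median of 0.03. The lower one was Chl1, a neural adhesion molecule, with 1.88 and 0.967 CPM against 0.275 and 0.249 CPM.

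With UTR length ignored, genes with and without a match to the seed had nearly equal medians. The 7-base match GTGCCAA was present in the longest annotated 3′ UTR of 1161 of 11053 tested genes with a UTR (10.5%), and in 8.73% of all 21072 UTRs. The median log2 fold change was -0.0010 with a site and -0.0119 in 7808 genes with no site for the 3 microRNAs, a difference of 0.0108. Genes with the 8-base site numbered 372 and had a median of -0.0239. Of these, 21 were lower and 19 higher at the unadjusted threshold, which is 5.65% lower against 4.08% of all genes with a UTR. Genes with a site have longer UTRs, with a median of 2664 bases against 1004. Within 4 equal bins of UTR length the difference was -0.0723, -0.0793, -0.0497 and -0.0159 from the shortest to the longest, so its sign depends on whether UTR length is held. Sites of miR-182 (1524 genes) and miR-183 (1319 genes), which the vector was not labelled to carry, had medians of 0.0584 and 0.0488, with UTR length not held.

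Among the 6 genes with an 8-base site and the smallest p among lower genes were Gpm6b, B4galnt1, Morf4l2, Fadd and Ube2c. They were chosen by these values, which are therefore a description. Gpm6b, a membrane glycoprotein of the proteolipid family, had 83.7 and 79.4 CPM against 54.8 and 37.1 CPM. B4galnt1, an enzyme of ganglioside synthesis, had 225 and 217 CPM against 171 and 137 CPM. Both lay below both controls.

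Morf4l2, a chromatin protein, had 209 and 196 CPM against 145 and 156 CPM. Fadd, the adaptor of death receptors, had 13.5 and 18.3 CPM against 9.99 and 8.95 CPM. Ube2c, a ubiquitin-conjugating enzyme that works with the anaphase-promoting complex, had 107 and 107 CPM against 66.5 and 27.9 CPM and also belongs to the mitotic list above. In the knockout, Ube2c had 136 and 83.6 CPM and was called higher (log2 fold change 1.54, adjusted p = 0.0334). B4galnt1 had 174 and 174 CPM in the knockout against 200 and 179 CPM in the wild type.

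Loss of the cluster gave a separate set of libraries to set beside the vector, since the 2 comparisons share none, although they share the estimate of the spread in 1 fit. The knockout called 1544 genes (13.0% of those tested), 786 higher (6.63%) and 758 lower (6.40%). Of the 557 genes higher with miR-96 at an unadjusted p under 0.05, 140 (25.1%) were called lower in the knockout and 5 (0.898%) higher. Of the 474 genes lower with miR-96, 208 (43.9%) were called higher in the knockout and 0 lower. Read from the knockout, 84.4% of its 786 higher genes had a negative log2 fold change with miR-96, against 49.2% of all genes, and 89.1% of its 758 lower genes had a positive one, against 50.8%. The calls of the knockout rest on single libraries, with 0 genes called without knockout library 1 and 1 without wild type library 2.

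**Figure D5:**
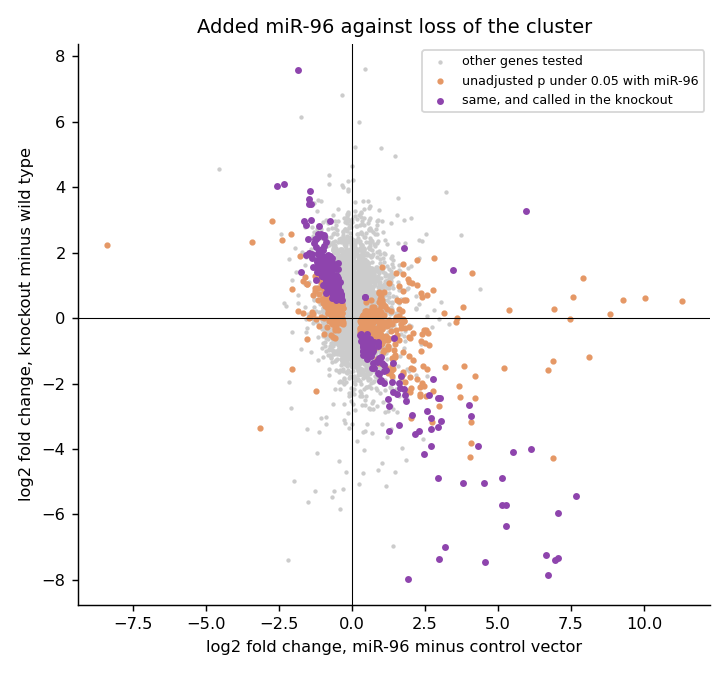
Log2 fold change of each tested gene with added miR-96 (horizontal) against that with loss of the cluster (vertical). Of the genes past an unadjusted p of 0.05 with miR-96 that were also called in the knockout, 140 lie at the lower right, 208 at the upper left and 5 at the upper right.

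The difference between the 2 contrasts was called for 1070 genes (9.03%), 543 positive (4.58%) and 527 negative (4.45%). Of the 26 mitotic genes, 25 were among them, and 22 were called higher in the knockout, where the list's median was 1.45. Of 22 cholesterol genes, 18 were called higher in the knockout (median 0.93) and 14 differed. Of 11 Th17 cytokines and effectors, 7 were called lower in the knockout (median -1.65) and 6 differed. Il17a had 14.5 and 24.4 CPM in the knockout, Il1r1 7.44 and 11.7 CPM, and Ccnb2 93.1 and 62.3 CPM. Of the 13 called genes, 5 were called lower in the knockout (Il10, Jchain, Cd79a, Foxp3 and Erdr1) and Ctse was called higher.

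Myc and ribosome biogenesis genes had a median of -0.83 in the knockout, with 14 of 22 called lower, but 0.06 with miR-96. Glycolysis and hypoxia genes had 0.68 with 6 of 24 called higher in the knockout, but -0.03 with miR-96. Of all genes, 6.40% were called lower and 6.63% higher in the knockout. The difference between the contrasts was called for 2 genes of each list, a share near the 9.03% of all genes.

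Single libraries of a group differed from each other by more than the group means did. At a mean of 5 CPM or more, the median absolute log2 ratio was 0.233 between the miR-96 libraries and 0.213 between the controls, against 0.169 between the group means, which are averages of 2 libraries and so vary less. Over 2-fold, 445 and 274 genes differed within the groups and 178 between the means. Over 4-fold, 61 of 9801 genes differed between the miR-96 libraries, 55 of them higher in library 2, and 35 of 9645 did so between the controls, against 29 of 9748 between the group means. In the miR-96 pair, Rmrp and Rpph1, the RNA components of RNase MRP and RNase P, had 0.366 and 68.8 CPM and 0.458 and 58.0 CPM. Il22 was also in this set. In the control pair, Il2, the T cell growth factor, had 8.47 and 50.3 CPM and Ifitm1, an interferon-induced membrane protein, had 72.6 and 10.2 CPM. These genes overlapped between the groups or rested on 1 library. Eef1a1, a translation elongation factor taken for its high count, had 15337 and 14435 CPM in controls against 14691 and 15335 CPM.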

How the data were processed

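The authors deposited 1 table of estimated counts by gene without normalization, with 1 column per library matched through the letter in each sample's description. Per the submitters' processing notes, the build was mm10 and the tools included STAR 2.3.0, bcl2fastq 2.16.0.10, edgeR and Partek, whose roles are not described. The annotation, strand use and treatment of reads shared by several genes are not given in the sources used here. Among 24453 lines, 27 carried date numbers instead of symbols and were dropped (at most 0.243% of a library).

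Counts were rounded and tested in edgeR 4.0.16 (R 4.3.3) by its quasi-likelihood F test, fitted to all 8 libraries by group. Scaling used TMM factors, and filterByExpr removed low genes (minimum count 10 and minimum total 15), leaving 11851 genes, 11593 of them members of the set described here, with 4 residual degrees of freedom. The biological coefficient of variation was 0.188. Benjamini-Hochberg adjustment was over all genes tested, with calls at an adjusted p under 0.05. Standard errors were derived from the F statistic. The code was tested on simulated counts. Count-ratio intervals are exact binomial at 95%.

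Gene positions and 3′ UTRs came from GENCODE mouse release M21 on GRCm38, the assembly of mm10. Gene lists were described by counts and medians with no set test. Members and lists were chosen with earlier results of these data known. Named genes were taken by rule: Mir96, Foxo1, Il1r1, Il17a and Il17f, called genes, the 10 smallest p in each direction at log2 CPM of 3 or more without overlap, the 3 smallest p of each list, the 5 smallest p of the difference, the 6 lower genes with 8-base sites, the 6 genes most unequal between duplicates and the 6 of highest count. Of the genes taken by the rule, 2 are not reported here. Genes named beyond it were chosen after their values were seen, to show list members that overlapped or a neighbouring gene. Alternatives were other scaling factors, filters, DESeq2 1.42.0, a fit of 4 libraries, duplicate number as a block, single libraries left out, a robust fit and other site and UTR definitions.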

Additional observations from a re-analysis of the deposited data

Results flagged for a closer look

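The change with added miR-96 differed from the change with loss of the cluster for the 5 genes with the smallest p of that difference at an average log2 CPM of 3 or more (edgeR, quasi-likelihood F test of the difference itself, adjusted over all genes). Each value is the log2 fold change of miR-96 minus control vector, less that of knockout minus wild type. Jchain differed by 13.10 (adjusted p = 0.00133), Il10 by 13.02 (adjusted p = 0.00172) and Ikzf2 by 6.61 (adjusted p = 0.00503), higher with the vector and lower without the cluster. The Jchain value rests on 3 control counts and is no bound. Dhx58 differed by -3.19 (adjusted p = 0.00426), lower with the vector and higher without the cluster. Gbp2b differed by 6.93 (adjusted p = 0.00503), almost all of it from the 2 control vector libraries.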

How the results depend on the processing

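The 13 genes called with miR-96 numbered 13 with RLE factors, 11 with upper-quartile factors and 13 with a robust fit. Without a filter on low counts 466 genes were called (275 higher, 191 lower), with DESeq2 115, with only the 4 libraries of the contrast 8 and without Y-linked genes and Xist 8. With single libraries left out the count ranged from 0 to 125, lowest without control library 1 and highest without miR-96 library 1. The duplicate number as a replicate block gave 16 calls with 8 libraries and 17 with 4. The labels give these numbers no shared animal, day or batch, and the deviations of same-numbered control and miR-96 libraries correlated at -0.221 (from -0.221 to 0.337 over all pairs of groups, highest for control vector and knockout), so the numbers are not taken to pair the samples. Crossing the numbers, an alternative chosen after seeing the data, gave 20 calls.

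The 1070 calls of the difference became 2534 without a filter, 1674 with DESeq2 and 23 to 1613 with single libraries left out. The 1544 knockout calls became 3151 without a filter and 0 to 1975 with single libraries left out. The cause of these changes was not tested. Genes with a miR-96 site differed by 0.0108 from genes with no match to bases 2 to 8 of the 3 microRNAs. That difference was -0.0120 for 8-base sites, 0.0436 for bases 2 to 7 followed by an A and -0.0105 for the shortest UTR. Within 4 bins of UTR length it was -0.0723, -0.0793, -0.0497 and -0.0159. With single libraries of the contrast left out it ranged from -0.0147 to 0.0381. Depth limits genes at or near 0 in the controls, where 3 counts correspond to 0.241 and 0.293 CPM.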
